A study of Mus musculus with 28 samples.

Results

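The comparison described here was between peritumour liver of the groups titled Pe_M and Pe_F in a mouse model of hepatocellular carcinoma. All libraries came from mice labelled c-Myc/Alb-cre transgenic, in which the albumin promoter directs Cre recombinase to hepatocytes. The series held 28 RNA-seq libraries, of which 14 were from peritumour tissue (3 Pe_M and 11 Pe_F) and 14 from tumours (3 Tu_M and 11 Tu_F). No non-transgenic liver was analysed here, and both groups carried the same oncogene and driver. The labels gave no age or treatment, did not expand the letters M and F, and did not say whether a library came from 1 animal or a pool. The number within each sample code was taken as the animal, so that a tumour and a peritumour library with the same number were taken as a pair, and p-values measure only the spread between these libraries. Codes of the form number-2A were carried by all 3 Pe_M and by Pe_F 1, 2 and 3, and the other 8 Pe_F had another form. The comparison was therefore made against all 11 Pe_F and again against the 3 number-2A Pe_F. These share the Pe_M libraries and 3 Pe_F libraries, so their values stand side by side and neither supports the other.

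Only autosomal genes were kept: 17398 of the 18182 genes in the table, with 632 genes on the X, 60 on the Y and 92 without a placed chromosome set aside. Liver is one of the tissues in which transcription differs most between the sexes. In male rodents the pituitary releases growth hormone in separated pulses that activate STAT5B in hepatocytes in bursts, whereas in females release is closer to continuous. The pulses keep up male-biased genes such as major urinary proteins and Cyp4a12 enzymes, with help from the repressor BCL6. The continuous pattern permits CUX2 and female-biased sulfotransferases and Cyp2b and Cyp3a enzymes. The letters were checked on 4 Y-linked genes, which were not members. Ddx3y was at 47.6, 40.8 and 23.6 CPM (counts scaled to library size and adjusted for library composition as described under the processing) in Pe_M and between 0 and 0.0616 in Pe_F. Kdm5d was at 22.4, 23.9 and 15.7 in Pe_M and at 0 in every Pe_F.

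Estimated counts summed to between 14777567 and 17069958 per library, and between 15227 and 15713 genes had a count. Genes defining hepatocytes (16 genes, among them Alb, Ttr and Hnf4a) summed to 55880, 43920 and 62590 CPM in Pe_M and to between 22200 and 81450 CPM in Pe_F, so the labelled tissue carried its markers in every library. Pe_F 5 stood apart on the first principal component (30.5% of the variance) and Pe_F 6 on the second (22.1%). Markers of neutrophils and their precursors summed to 508.7, 720.9 and 310.8 CPM in Pe_F 2, 5 and 6, against 124.6, 46.5 and 34.6 CPM in Pe_M. Erythroid precursor markers were also high in those 3 Pe_F, at 2258, 2792 and 2255 CPM, against 1158, 1071 and 1242 CPM in Pe_M. In bulk tissue, fewer cells of a type and less RNA per cell cannot be told apart.

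Upstream sequences are shown first for 2 genes that were lower in value in Pe_M, followed by a window at the start of a STAT5 target. For Sult2a2 and Sult2a1 no sequence is shown. Promoters were taken for 70 of the 92 named genes in a RefSeq table of build GRCm38.p6, which holds 250 bases before and 50 bases after each start. Cyp2b9 and Cyp2b13 are neighbouring cytochrome P450 genes of chromosome 7 that were both lower in value in Pe_M, and Dlk1, on chromosome 12, is an imprinted gene of fetal tissues. The letters before the starts of Cyp2b13 (chr7:26061245-26061494, plus strand) and Dlk1 (chr12:109452573-109452822, plus strand) are given 5′ to 3′, ending next to the start.
Cyp2b13: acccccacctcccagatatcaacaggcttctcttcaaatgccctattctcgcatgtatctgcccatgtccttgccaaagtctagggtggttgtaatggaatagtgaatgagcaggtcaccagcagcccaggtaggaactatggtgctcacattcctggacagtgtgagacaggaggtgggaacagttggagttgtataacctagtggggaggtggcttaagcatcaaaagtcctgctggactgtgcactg
Dlk1: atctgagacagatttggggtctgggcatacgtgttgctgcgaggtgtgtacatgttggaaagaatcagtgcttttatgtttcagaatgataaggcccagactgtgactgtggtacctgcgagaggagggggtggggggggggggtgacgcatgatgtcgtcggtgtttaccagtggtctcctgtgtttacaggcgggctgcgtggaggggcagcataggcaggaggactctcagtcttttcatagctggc
The same 250 bases before the table's Cyp2b9 start were identical to those of Cyp2b13 at 248 positions. The STAT5 motif TTCNNNGAA, which reads the same on both strands, did not occur in the 250 bases before the start of Cyp2b9, Cyp2b13 or Dlk1. Of the RefSeq promoters, 8.3% of 32851 entries held it, and 9 of the 70 named genes with an entry did (12.9%, against 9.55% of all gene symbols). These were A1bg, Bcl6, Cish, Esr1, Fmo2, Gsta1, Keg1, Nox4 and Slc22a26. Cish, a textbook STAT5 target that dampens growth hormone signalling, held the motif at 2 places, shown in capitals. The window is chr9:107296656-107296681 on the plus strand. Both matches lie at or after the start of this entry, not in the 250 bases before it.
Cish: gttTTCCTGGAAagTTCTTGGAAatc

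Against all 11 Pe_F, no autosomal gene passed an adjusted p of 0.05 in edgeR's quasi-likelihood test (0 of 13250 tested, 0.0%). The gene nearest the threshold was Sult2a2, a female-biased liver sulfotransferase, with an adjusted p of 0.0616. At an unadjusted p under 0.05 there were 122 genes with higher values in Pe_M (0.921%) and 191 with lower values (1.44%). DESeq2's Wald test called 8 genes on the same libraries: Mab21l3 higher, and Sult2a2, Sult2a1, Cyp3a41a, Cyp2b9, Mmd2, Got1 and Mogat2 lower. All 3 Pe_M lay above all 11 Pe_F for 24 genes (0.181%) and below all 11 for 36 genes (0.272%). The median log2 fold change over all tested genes was -0.014.

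Against the 3 number-2A Pe_F, 2 of 12815 autosomal genes passed the threshold in edgeR (0.0156%), and both fell: Sult2a2 (log2 fold change -3.04 ± 0.26 SE, adjusted p = 0.00503) and Dlk1 (adjusted p = 0.0238). Dlk1 passed the filter on low counts through its Pe_F levels alone, so with this filter it could be called only as lower. At an unadjusted p under 0.05 there were 401 genes higher (3.13%) and 503 lower (3.93%) in value. Groups of 3 that do not overlap were common by number: 677 genes had all Pe_M above (5.28%) and 984 had all Pe_M below (7.68%). DESeq2 called 89 genes here, 25 higher and 64 lower. Leaving out 1 library at a time gave between 1 and 12 genes in edgeR, with the 12 reached without Pe_M 1. Sult2a2 kept its call under all of these except the omission of Pe_M 3 (adjusted p = 0.0756).

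**Figure D1:**
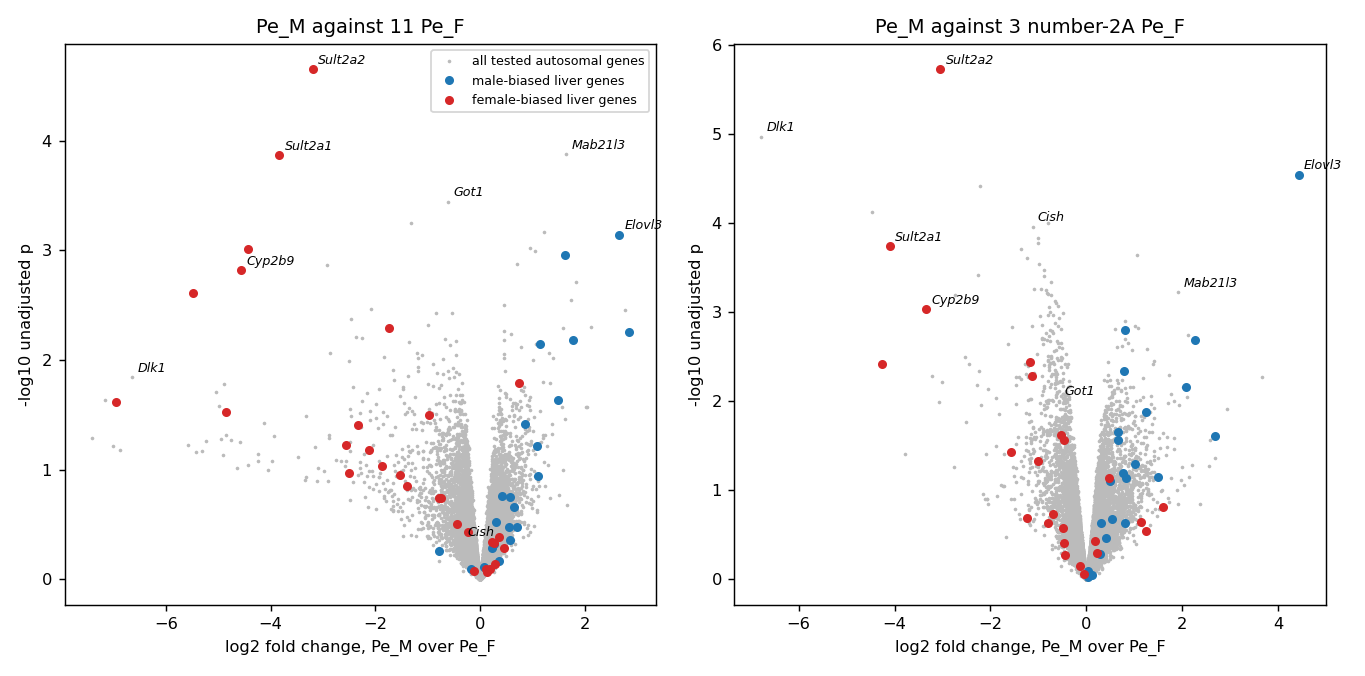
Each point is a tested autosomal gene: the x axis is the log2 fold change of Pe_M over Pe_F and the y axis is minus log10 of edgeR's unadjusted p, against 11 Pe_F on the left and against the 3 number-2A Pe_F on the right. Blue points are male-biased and red points female-biased liver genes. Sult2a2 has the smallest p in both panels, at 2.25e-05 and 1.9e-06.

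Sult2a1 and Sult2a2 encode cytosolic sulfotransferases that add sulfate to hydroxysteroids and bile acids, and lie beside each other on chromosome 7 (Sult2a2 at 13733506 to 13779637 on the plus strand, Sult2a1 at 13796246 to 13837410 on the minus strand). Sult2a2 was at 4.44, 2.45 and 3.68 CPM in Pe_M, and its lowest, median and highest Pe_F values were 6.08, 30.3 and 65.6 CPM. The number-2A Pe_F held 36.4, 27.65 and 22.95 CPM. Every Pe_M was below every Pe_F. Per length, the deposited TPM (abundance scaled to transcript length and library) had a median of 8.03 in Pe_M and 81.6 in Pe_F. The log2 fold change against 11 Pe_F was -3.19 ± 0.54 (SE), with the adjusted p of 0.0616 given above. It passed the threshold without Pe_F 4 or without Pe_F 11, in 2 of the 14 omissions of 1 library.

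Sult2a1 was at 2.55, 1.63 and 2.98 CPM in Pe_M, and at 4.84, 31.4 and 69.7 CPM as the lowest, median and highest Pe_F. Its number-2A Pe_F values were 54.3, 53.6 and 14.2 CPM, and again no Pe_F reached down to the Pe_M. Its log2 fold change was -3.83 ± 0.76 (SE, edgeR adjusted p = 0.267) against 11 Pe_F and -4.10 ± 0.57 (adjusted p = 0.172) against 3. The genes of the family are near copies: 62.1% of the 50-base stretches of Sult2a2 and 33.2% of those of Sult2a1 occur in another gene, so how the estimated counts were divided among them is uncertain. The other members measured, Sult2a3 and Sult2a5, were chosen after their values were seen. They had log2 fold changes of -2.47 ± 0.74 and -2.08 ± 0.61 against 11 Pe_F, and neither passed (edgeR adjusted p = 0.999 for each).

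Cyp2b9, a female-biased cytochrome P450 that oxidises drugs and steroids (chromosome 7, 26173335 to 26210661), was at 1.95, 0.582 and 1.25 CPM in Pe_M. Its lowest, median and highest Pe_F were 0.800, 24.1 and 102.2 CPM, and the number-2A Pe_F held 6.55, 7.94 and 24.1 CPM. In 10 of the 11 Pe_F it was above the highest Pe_M, while the lowest Pe_F lay among the Pe_M. The log2 fold change was -4.56 ± 1.19 (SE, edgeR adjusted p = 0.999) against 11 Pe_F and -3.35 ± 0.64 (adjusted p = 0.31) against 3. Cyp2b13, whose upstream letters are printed above, was far lower in level at 0.365, 0.175 and 0.347 CPM in Pe_M and 0.389, 0.873 and 1.79 CPM in Pe_F. All its Pe_M were below all its Pe_F, on 14 counts in Pe_M, and its log2 fold change of -1.73 ± 0.53 did not pass (edgeR adjusted p = 0.999). The filter on low counts kept Cyp2b13 through its Pe_F levels alone.

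The Cyp3a genes of the female-biased list encode steroid- and drug-oxidising P450 enzymes, and 3 of the 4 were lower in value in Pe_M. Cyp3a41a was at 0.182, 0 and 0.277 CPM in Pe_M and at 0.248, 3.32 and 7.38 CPM as the lowest, median and highest Pe_F. Its log2 fold change was -4.44 ± 1.10 (SE, edgeR adjusted p = 0.943), and 98.6% of its 50-base stretches are shared with other genes, Cyp3a41b first, so its counts cannot be told from those of near copies. Cyp3a41b itself, which did not pass the filter on low counts, was the exception: it lay between 0.175 and 0.763 CPM in Pe_M, at 0 in the 3 number-2A Pe_F and between 0 and 0.286 CPM over all Pe_F. Cyp3a16 had no count in any Pe_M and 177 counts over the Pe_F. At a floor of 3 counts over the 3 Pe_M it was at least 16.3-fold lower in these libraries (exact 95% lower limit 13.1), and at least 9.75-fold lower than in the number-2A Pe_F (7.44). Pe_F 5, at 6.97 CPM beside a median of 0.124 CPM, weighed on this: without it the bound was 5.62-fold (4.42). Cyp3a44 had 1 count in Pe_M and 229 in Pe_F, a ratio of pooled CPM of 63.2 (95% exact interval 11.2 to 2510). Without Pe_F 5, its highest Pe_F, the ratio was 42.6 (7.52 to 1700). A1bg, a plasma protein gene, had 3 counts in Pe_M and 353 in Pe_F, a ratio of 32.5 (11.0 to 158), but only 27 in the number-2A Pe_F, a ratio of 9.08 (2.79 to 46.8). It was at 0 in Pe_F 2, 5 and 6, so its groups overlapped in both comparisons. These intervals and floors cover counting error only. The filter on low counts kept Cyp3a41a, Cyp3a16, Cyp3a44 and A1bg through their Pe_F levels.

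The other female-biased genes were less separated. Cux2, a homeobox repressor of male-biased genes, was at 0.304, 0.291 and 0.416 CPM in Pe_M. Its Pe_F ran from 0.269 through a median of 0.754 to 13.95 CPM, overlapping Pe_M at the low end (log2 fold change -2.55 ± 1.26). The highest value was that of Pe_F 5, and without this library the log2 fold change was -1.23. Cux2 too passed the filter on low counts through its Pe_F levels alone. Cyp2c40, a P450 that oxidises arachidonic acid, had a log2 fold change of -1.53 ± 0.90 against 11 Pe_F (-0.90 without Pe_F 4) and -1.18 ± 0.29 against 3, and 60.3% of its 50-base stretches are shared. None of these passed in edgeR (adjusted p = 0.999 against 11 Pe_F). In the opposite direction, Cd36, a fatty acid uptake receptor on this list, was at 194.2, 316.1 and 360.2 CPM in Pe_M against 68.9, 176.4 and 244.5 CPM in Pe_F (log2 fold change 0.75 ± 0.28, adjusted p = 0.999).

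Of the 32 female-biased genes, 30 passed the filter on low counts in the comparison with 11 Pe_F, and Cyp3a41b and Sult3a1 did not. None was called by edgeR, 21 were lower and 9 higher in value, and the median log2 fold change was -1.19 against -0.014 over all genes. At an unadjusted p under 0.05 there were 10 lower and 1 higher, beside 1.44% and 0.921% of all tested genes. In 5 of the 30 (Sult2a1, Sult2a2, Cyp2b13, Cyp3a44 and Cyp3a16) all Pe_M lay below all Pe_F, beside 0.272% of all tested genes. Of those 5, Cyp2b13, Cyp3a44 and Cyp3a16 passed the filter through their Pe_F levels alone, so they could not have been counted as above. Against the number-2A Pe_F, 24 were tested, 1 was called (Sult2a2), 18 were lower in value and 6 higher, and the median was -0.51 against 0.008 over all genes. Among the genes not tested here were Cux2, Cyp2b13, Cyp3a16, Cyp3a44 and A1bg, so the medians of -1.19 and -0.51 are of different gene sets. Cux2, Cyp2b13, Cyp3a16, Cyp3a44 and A1bg had entered the 30 through their Pe_F levels alone. So had Cyp3a41a, which entered the 24 in the same way. Such genes could hardly count as higher, and they are part of the counts of lower values and of the medians. In 7 of the 24 tested against 3 Pe_F all Pe_M lay below all 3, beside 7.68% of all tested genes. The median against 3 Pe_F was -0.78 without Pe_M 1, -0.77 without Pe_M 2 and -1.07 without Pe_M 3, over 28 or 29 tested genes. DESeq2 called 4 female-biased genes against 11 Pe_F and 5 against 3, all lower.

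Among male-biased genes, Mup20 encodes darcin, a urinary pheromone protein made by the liver. It was at 3590, 3641 and 3229 CPM in Pe_M, and at 116.4, 845.1 and 2753 CPM as the lowest, median and highest Pe_F. The number-2A Pe_F held 671.1, 1752 and 2753 CPM. All Pe_M were above all Pe_F, the only tested gene of the list for which this held against 11 Pe_F. The log2 fold change was 1.78 ± 0.57 (SE) against 11 and 1.01 ± 0.44 against 3, and neither passed (edgeR adjusted p = 0.999 and 0.693). The second value was 0.63 without Pe_F 1 and 1.53 without Pe_F 3. Sequence shared with other Mup genes made up 50.5% of its 50-base stretches, so its counts are uncertain in the same way.

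Cyp4a12b and Cyp4a12a encode omega-hydroxylases that convert arachidonic acid. Cyp4a12b was at 57.7, 96.1 and 208.5 CPM in Pe_M and at 12.6, 41.6 and 62.1 CPM as the lowest, median and highest Pe_F. One Pe_M lay below the highest Pe_F, and the log2 fold change was 1.64 ± 0.41 (SE, edgeR adjusted p = 0.943). Cyp4a12a was at 100.6, 127.8 and 324.1 CPM in Pe_M and overlapped Pe_F more widely (9.20, 49.3 and 242.6 CPM), with a log2 fold change of 1.49 ± 0.59 (adjusted p = 0.999). Without Pe_M 3 these values were 0.98 and 0.80. The pair share 49.4% of the 50-base stretches of Cyp4a12b.

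Elovl3, an elongase of very long chain fatty acids on chromosome 19, was at 6.20, 3.32 and 10.1 CPM in Pe_M. Its lowest, median and highest Pe_F were 0.114, 0.651 and 3.41 CPM, so 1 Pe_F reached just above the lowest Pe_M. In the number-2A Pe_F it was at 0.194, 0.246 and 0.439 CPM, well under every Pe_M. In the comparison with these 3, Elovl3 passed the filter on low counts through its Pe_M levels alone, so with this filter it could not be called lower. Against 11 Pe_F the log2 fold change was 2.66 ± 0.63 (SE, edgeR adjusted p = 0.897) and against 3 it was 4.43 ± 0.53 (adjusted p = 0.0544). The latter passed under 4 of 12 alternatives: library size alone (0.033), no filter on low counts (0.0123), without Pe_M 2 (0.0139) and DESeq2 (1.4e-10). Within Pe_F, the number-2A libraries were lower than the other 8 by value (log2 fold change -2.12 ± 0.83, edgeR adjusted p = 0.39), and the part of code form in the larger difference was not tested.

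Bcl6, the repressor of female-biased genes, was at 31.9, 38.0 and 29.7 CPM in Pe_M and at 15.8, 23.6 and 46.0 CPM as the lowest, median and highest Pe_F. Its groups overlapped against 11 Pe_F (log2 fold change 0.30 ± 0.28). The number-2A Pe_F, at 15.8, 22.8 and 18.9 CPM, were all below Pe_M (0.80 ± 0.17, edgeR adjusted p = 0.366). C6, a complement component of the membrane attack complex, was at 60.8, 64.6 and 84.2 CPM in Pe_M against 11.5, 29.6 and 62.4 CPM in Pe_F (1.14 ± 0.37, adjusted p = 0.999). Only the highest Pe_F reached the lowest Pe_M. Cyp2d9, a male-biased steroid hydroxylase, was at 356.9, 237.7 and 506.2 CPM in Pe_M against 29.9, 219.8 and 286.6 CPM in Pe_F (0.86 ± 0.38, adjusted p = 0.999, and 0.56 without Pe_M 3). Slco1a1, an organic anion transporter, had a log2 fold change of -0.78 ± 1.28 against 11 Pe_F and 0.82 ± 0.40 against 3. The first value turned to 0.60 without Pe_F 4, which held 24.1 CPM beside a Pe_F median of 0.619 CPM. It was 0.61 in DESeq2, which was run with replacement of outlying counts in groups as large as Pe_F.

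Of the 28 male-biased genes, 22 passed the filter on low counts, and Hsd3b5, Moxd1, Susd4, Ugt2b38, Cspg5 and Sult5a1 did not. Hsd3b5 is a steroid dehydrogenase usually abundant in male liver. None of the 22 was called by edgeR in either comparison. Against 11 Pe_F 20 were higher and 2 lower in value (median log2 fold change 0.61). At an unadjusted p under 0.05 there were 7 higher and 0 lower, beside 0.921% and 1.44% of all tested genes. Against 3 Pe_F all 22 were higher in value (median 0.78), 9 of them at an unadjusted p under 0.05, beside 3.13% of all tested genes. In 8 all Pe_M lay above all 3 Pe_F, beside 5.28% of all tested genes. Elovl3 is among the 22, the 9 and the 8, and it was tested against 3 Pe_F through its Pe_M levels alone. DESeq2 called 0 of the 22 against 11 Pe_F and 4 against 3.

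**Figure D2:**
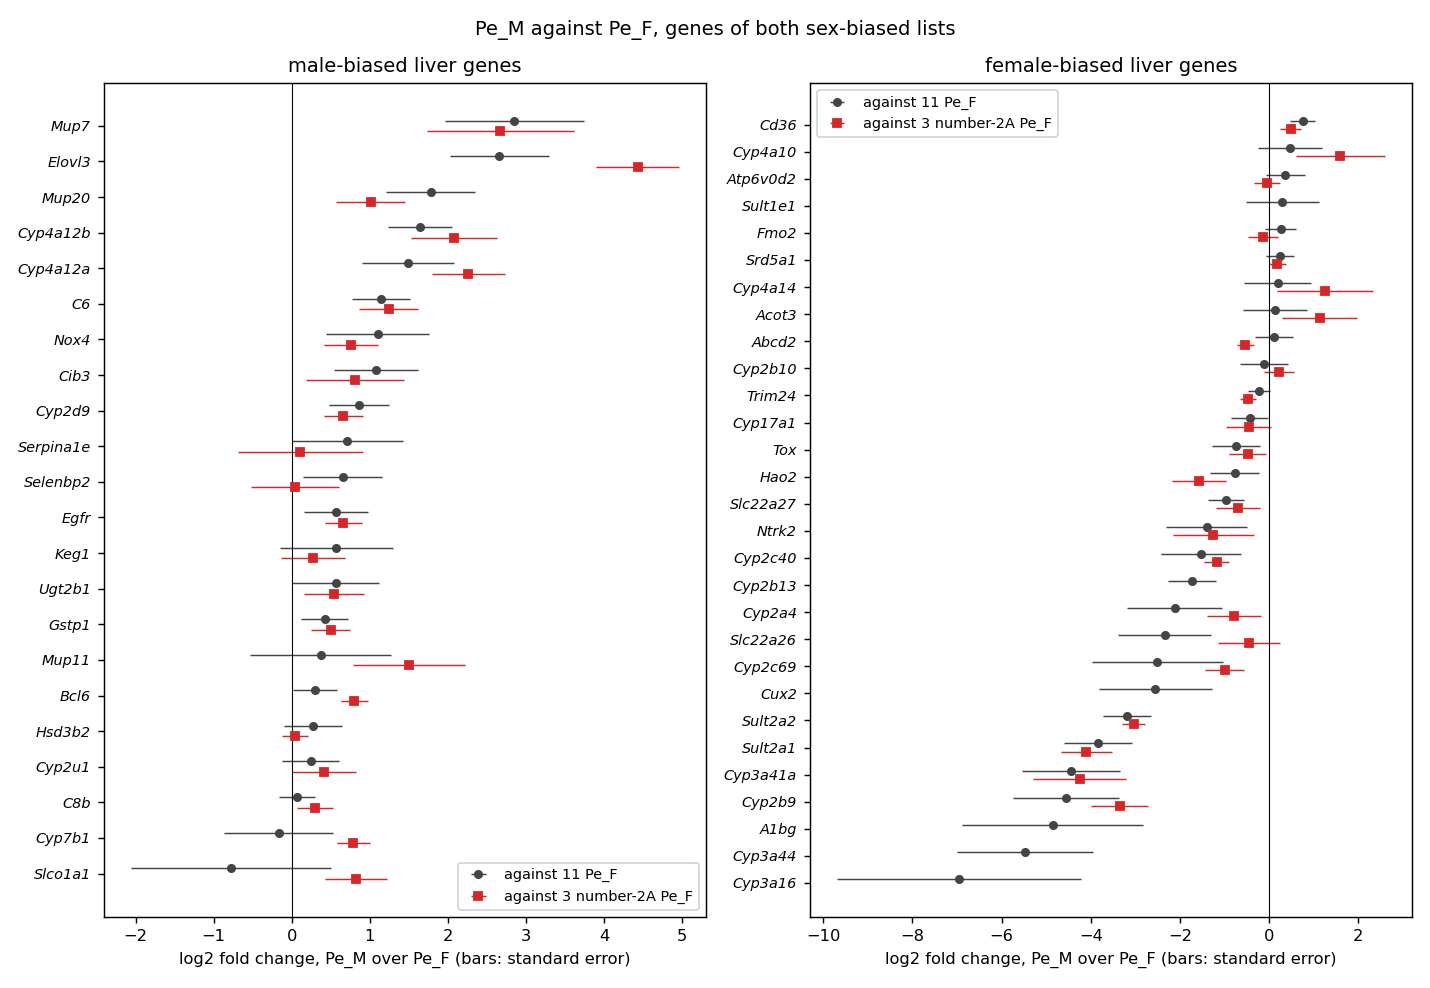
Points are edgeR log2 fold changes of Pe_M over Pe_F with bars of 1 standard error, for the tested genes of the male-biased (left) and female-biased (right) lists (1 female-biased gene is not drawn), in black against 11 Pe_F and in red against the 3 number-2A Pe_F. The 22 male-biased genes lie mostly right of 0, with a median of 0.61 in black, and the female-biased genes mostly left, with a median of -1.19 over all 30 tested.

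**Figure D3:**
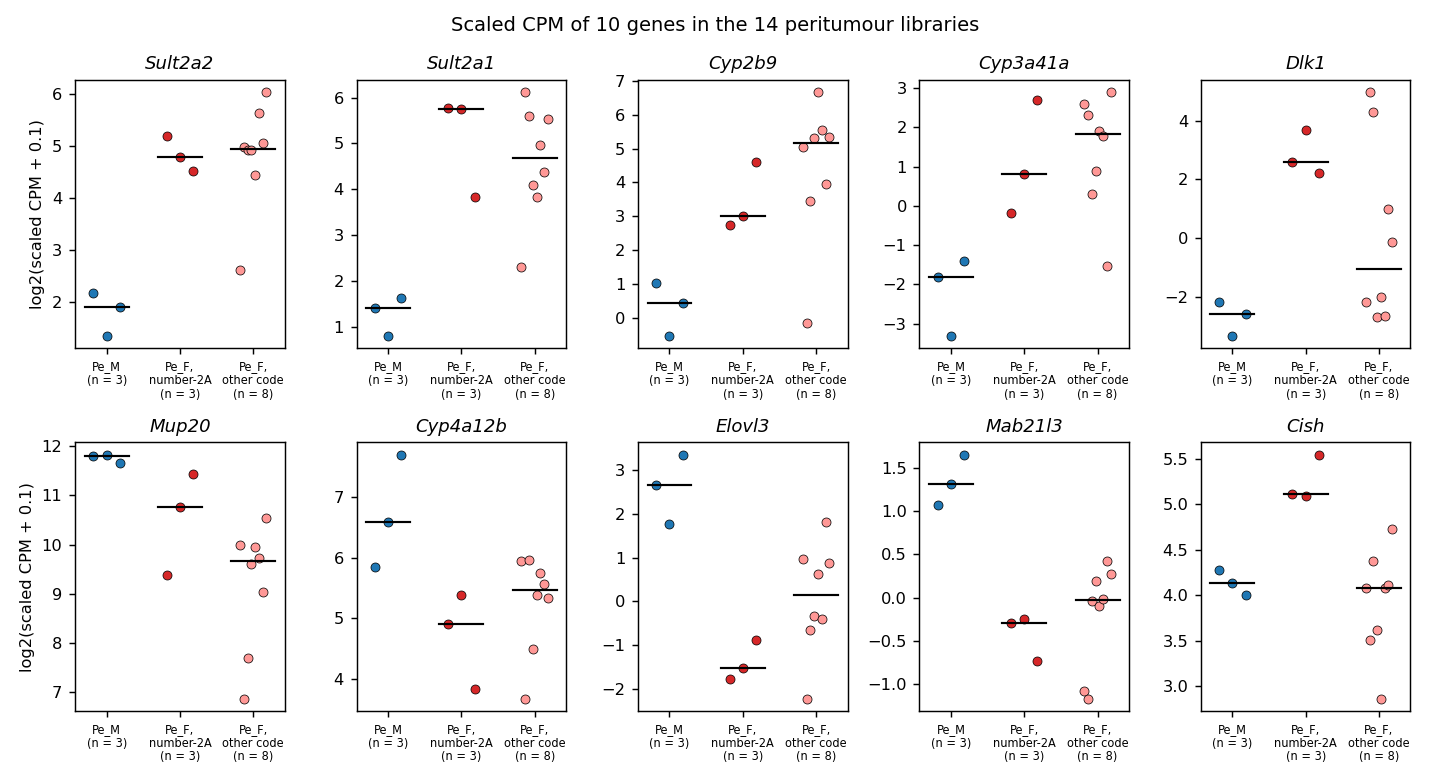
Each point is 1 library and each bar a group median, on the y axis as log2 of scaled CPM plus 0.1, for 10 genes in Pe_M, in the 3 number-2A Pe_F and in the 8 other Pe_F. For Sult2a2, Sult2a1 and Mup20 the Pe_M points do not overlap Pe_F, whereas the Dlk1 values of the 8 other Pe_F spread down to those of Pe_M.

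The 3 Pe_F libraries rich in blood precursor markers were left out as an alternative. The 22 male-biased genes then had 18 higher and 4 lower values (median 0.44), and 28 tested female-biased genes had 20 lower and 8 higher (median -1.08). Mup20 had a log2 fold change of 1.62 ± 0.38 and Sult2a2 one of -3.24 ± 0.60 without those libraries, close to the values with them. With code form as a covariate in the 14-library fit, the 22 male-biased genes were all higher in value (median 0.78), and 23 of 30 female-biased genes were lower (median -0.74). All Pe_M have the number-2A form, so this fit in effect sets them against the 3 number-2A Pe_F. It repeats that comparison and does not add another.

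EdgeR called no difference in the genes that carry the growth hormone signal itself. Ghr, the receptor, was at 178.6, 122.4 and 117.3 CPM in Pe_M against 47.0, 110.7 and 185.0 CPM as the lowest, median and highest Pe_F. Stat5b was at 83.5, 89.3 and 100.7 CPM against 88.3, 98.8 and 139.7 CPM, and Igf1, the secreted growth factor that growth hormone induces, was at 155.3, 131.8 and 129.8 CPM against 42.2, 106.3 and 301.2 CPM. Their groups overlapped, and their log2 fold changes were 0.29 ± 0.33, -0.15 ± 0.14 and 0.05 ± 0.45. That of Igf1 changed sign under 9 of 23 alternatives, and against 3 Pe_F it was -0.47 ± 0.34. Of the 26 growth hormone and IGF signalling genes tested, edgeR called 0 in either comparison, and 0 had an unadjusted p under 0.05 against 11 Pe_F. Against 3 Pe_F there were 4 higher and 2 lower at an unadjusted p under 0.05, beside 3.13% and 3.93% of all tested genes. In 5 of the 26 all Pe_M lay above all 3 Pe_F and in 1 below, beside 5.28% and 7.68% of all tested genes. DESeq2 called 1 there, lower.

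Cish differed by which Pe_F it was set against. It was at 19.3, 17.4 and 15.95 CPM in Pe_M and at 34.5, 33.9 and 46.6 CPM in the number-2A Pe_F, with no overlap. The other 8 Pe_F ran from 7.17 to 26.5 CPM around the Pe_M values. The log2 fold change was -1.12 ± 0.16 against 3 Pe_F (edgeR adjusted p = 0.134) and -0.33 ± 0.43 against 11 (adjusted p = 0.999). Socs2, another STAT5 target that restrains the receptor, was at 13.6, 7.98 and 6.87 CPM in Pe_M and at 3.83, 7.87 and 22.95 CPM in Pe_F (-0.02 ± 0.46). Of the steroid receptors, Esr1, on chromosome 10, had a log2 fold change of -0.65 ± 0.63 with overlapping groups. Of the 12 autosomal sex steroid receptor and metabolism genes tested, edgeR called 0, with 6 higher and 6 lower in value and 0 at an unadjusted p under 0.05. Against 3 Pe_F there were 4 higher and 8 lower (median -0.24), 1 of them lower at an unadjusted p under 0.05, beside 3.93% of all tested genes. EdgeR called 0 there too, and DESeq2 called 0 against 11 Pe_F and 1, lower, against 3. Myc, the oncogene of the model, was at 324.8, 253.1 and 347.6 CPM in Pe_M against 206.0, 400.1 and 659.6 CPM in Pe_F (-0.28 ± 0.30), with overlapping groups.

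Dlk1 (chromosome 12, 109452823 to 109463336), the other gene that fell against the number-2A Pe_F, encodes a membrane protein of fetal liver progenitors. Pe_M held 0.122, 0 and 0.0693 CPM, on 3 counts in all, and the number-2A Pe_F held 5.90, 12.7 and 4.58 CPM. The filter on low counts kept Dlk1 through its Pe_F levels alone. The pooled ratio was 124 (95% exact interval 42.2 to 606, counting error only). The other 8 Pe_F ran from 0.058 to 31.3 CPM, so that 2 of the 11 Pe_F were no higher than the highest Pe_M. The call was lost without Pe_F 1 (adjusted p = 0.0611), without Pe_M 2 (0.08) and without Pe_M 3 (0.22). Against 11 Pe_F it did not pass (adjusted p = 0.999).

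Among tumour and fetal liver markers as a list, more were lower than higher in value in Pe_M, as counted below. Afp, alpha-fetoprotein, was at 16.5, 8.09 and 4.51 CPM in Pe_M and at 3.22, 49.2 and 2119 CPM as the lowest, median and highest Pe_F, with Pe_M inside the range. Its number-2A Pe_F, at 154.5, 325.1 and 171.2 CPM, were all above Pe_M (log2 fold change -4.48 ± 0.54, edgeR adjusted p = 0.112). Cdkn1c, an imprinted inhibitor of the cell cycle, is not on that list and was named for its small p against 3 Pe_F. It was at 3.22, 2.15 and 2.01 CPM in Pe_M and at 4.09, 9.40 and 46.0 CPM in Pe_F. Every Pe_F was above every Pe_M, and the log2 fold change was -2.26 ± 0.72 against 11 (adjusted p = 0.999) and -2.22 ± 0.28 against 3 (adjusted p = 0.0639). Of the 13 tested tumour and fetal liver markers, 9 were lower in value and 4 higher against 11 Pe_F (median -0.29, and -0.12 without Pe_F 2, 5 and 6), and 8 lower and 5 higher against 3 (median -0.35, and -0.74 without Pe_M 2). Afp and Dlk1 were highest in Pe_F 5, the library that stood apart on the first component; the part of that library's composition in these values was not tested.

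By the rule for naming genes, the 5 smallest p-values in each direction against 11 Pe_F were Sult2a2, Sult2a1, Got1, Mogat2 and Mmd2 below, and Elovl3, Lepr, Cyp4a12b, Rragd and Fitm1 above. None passed in edgeR. Got1, the cytosolic aspartate aminotransferase, was at 88.2, 58.7 and 90.2 CPM in Pe_M and at 107.5, 122.4 and 138.1 CPM as the lowest, median and highest Pe_F. Its groups did not overlap, and the log2 fold change was -0.61 ± 0.14 (SE, adjusted p = 0.616). Mogat2, which makes diacylglycerol, was at 5.72, 3.44 and 6.03 CPM against 8.01, 12.9 and 20.0 CPM, again without overlap (-1.31 ± 0.30). Lepr, the leptin receptor, was at 13.5, 10.4 and 13.7 CPM against 3.31, 5.89 and 9.66 CPM, with every Pe_M above every Pe_F (1.04 ± 0.26, adjusted p = 0.943). Mab21l3, chosen after its values were seen, was at 2.01, 2.39 and 3.05 CPM against 0.343, 0.831 and 1.24 CPM, also without overlap (1.65 ± 0.33, adjusted p = 0.267).

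Against the number-2A Pe_F the rule named Elovl3, Aox1, Mvp, Gsta1 and Srxn1 above, and Sult2a2, Dlk1, Cdkn1c, Afp and Plk1 below. Aox1, an aldehyde oxidase of drug metabolism, was at 64.0, 90.3 and 92.4 CPM in Pe_M against 34.15, 40.3 and 44.3 CPM in these 3 Pe_F. Its log2 fold change was 1.05 ± 0.17 (edgeR adjusted p = 0.189). Srxn1, which repairs oxidised peroxiredoxins, had one of 1.08 ± 0.23 (adjusted p = 0.366). Against all 11 Pe_F these genes had log2 fold changes of 0.39 ± 0.45 and 0.23 ± 0.46, and some of the other Pe_F were above every Pe_M.

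Plk1, a mitotic kinase, was at 42.45, 35.4 and 35.3 CPM in Pe_M and at 69.8, 63.4 and 65.4 CPM in the number-2A Pe_F. This was a log2 fold change of -0.81 ± 0.12 against these 3 (edgeR adjusted p = 0.133). Birc5, which encodes the mitotic protein survivin, was at 52.3, 36.0 and 40.5 CPM against 96.5, 86.3 and 73.2 CPM (-0.99 ± 0.17, adjusted p = 0.192), and was chosen after its values were seen. Both genes were below every number-2A Pe_F in all Pe_M. Of the 26 cell cycle genes tested, edgeR called 0 and DESeq2 called 7 lower, and 23 were lower and 3 higher in value (median -0.56). In 14 all Pe_M lay below all 3 Pe_F, beside 7.68% of all tested genes. At an unadjusted p under 0.05 there were 13 lower, beside 3.93% of all tested genes. Summed over the list, Pe_M held 1847, 1563 and 1313 CPM and the number-2A Pe_F 2086, 2127 and 2334 CPM. Against 11 Pe_F the median was -0.29, with 24 lower in value and 1 of them at an unadjusted p under 0.05, beside 1.44% of all tested genes.

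Cell cycle values also differed within Pe_F. The number-2A Pe_F had 17 of the 26 genes higher than the other 8 Pe_F, 8 of them at an unadjusted p under 0.05, with a median of 0.38. Over all genes, that comparison called 0 of 13151 (0.0%) in edgeR and 111 in DESeq2, with 773 genes higher (5.88%) and 744 lower (5.66%) at an unadjusted p under 0.05. It shares the 3 number-2A Pe_F with the comparison above. For the 22 male-biased genes the same comparison within Pe_F had a median of -0.12 (10 higher, 12 lower), and for the 30 female-biased genes one of -0.41 (10 higher, 20 lower).

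Immune and inflammatory lists had different signs against the 2 sets of Pe_F. Of 20 interferon response genes, 14 were lower in value against 11 Pe_F (median -0.36), and all 20 were higher against the number-2A Pe_F (median 0.88). Without Pe_M 2, whose interferon sum was 1438 CPM beside 423.8 and 613.2 CPM in the other Pe_M, the latter became 10 higher and 10 lower (median -0.01). Of 17 acute phase genes, all were lower against 11 Pe_F (median -0.40), and 13 were higher against 3 (median 0.35, but 0.57 without Pe_M 1 and 0.03 without Pe_M 3). The 9 MHC class II genes went from 0 higher to 7 higher, and the 13 MHC class I genes from 2 higher to 10 higher. Without Pe_M 2 these last counts were 5 of 9 and 7 of 13, and without Pe_F 2 they were 5 of 9 and 8 of 13. No gene of these 4 lists was called by edgeR or DESeq2 against either set. Within Pe_F the number-2A libraries were lower for 19 of 20 interferon genes (median -1.58) and 13 of 17 acute phase genes (median -0.84), so code form and these lists moved together, and its part in these values was not tested.

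Cytotoxic and natural killer cell markers were low in Pe_M and in the number-2A Pe_F alike. They summed to 17.9, 47.45 and 20.25 CPM in Pe_M, and all 11 tested genes were lower in value against 11 Pe_F (median -0.79). Of these, 3 had an unadjusted p under 0.05, beside 1.44% of all tested genes. Against 3 Pe_F 7 of 9 were lower (median -0.21, which was 0.00 without Pe_M 1, -0.85 without Pe_M 2 and 0.04 without Pe_M 3). The 14 neutrophil markers had a median of -1.58 against 11 Pe_F and of -0.14 (13 tested) without Pe_F 2, 5 and 6. Against the number-2A Pe_F the median of the 12 tested was -1.54 (-2.34 without Pe_M 1), and 0.20 without Pe_F 2, so the lower values were not seen without those libraries. The erythroid markers likewise had a median of -0.38 with these libraries (11 tested) and 0.55 without them (8 tested), so these medians are of different gene sets. Pancreatic acinar and adipocyte marker lists had 1 tested gene each.

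**Figure D4:**
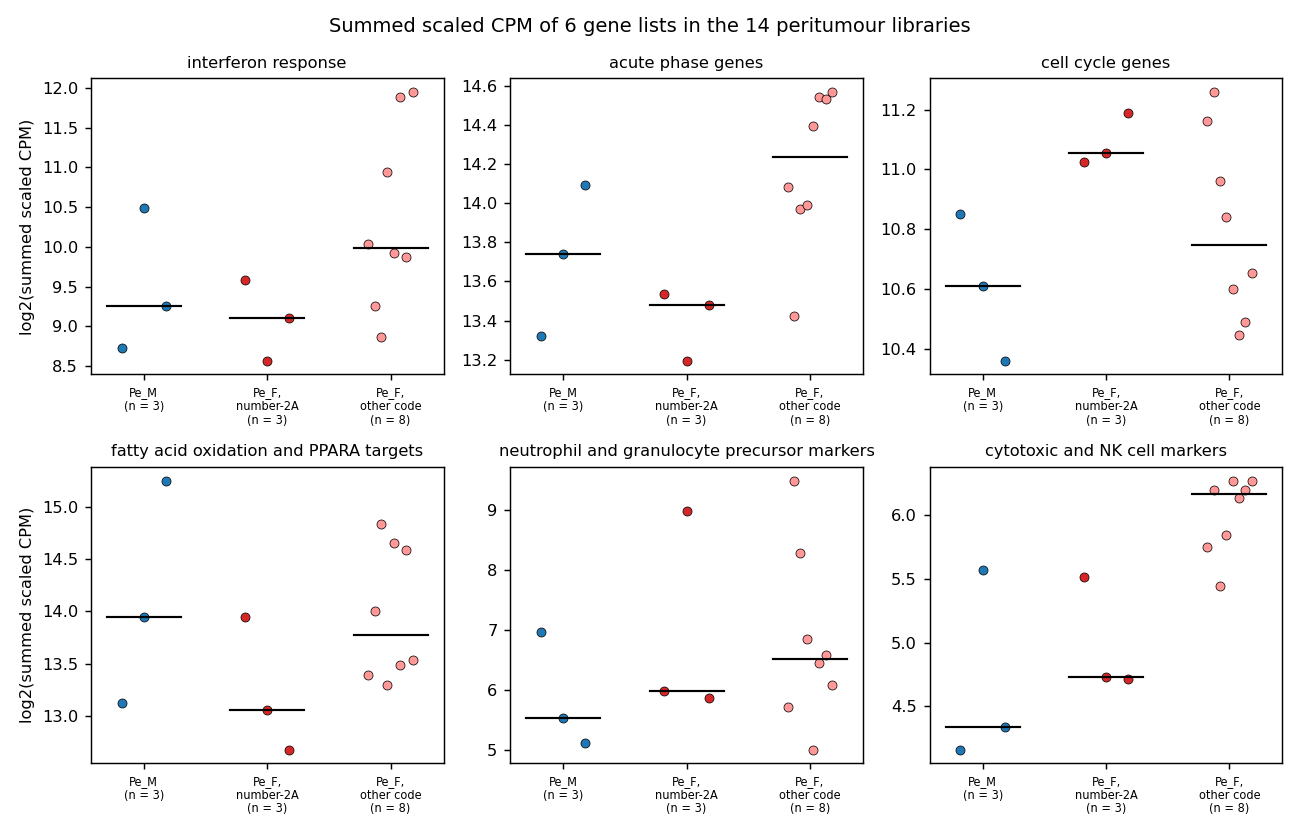
Each point is the summed scaled CPM of a gene list in 1 library, on a log2 y axis, for Pe_M, the 3 number-2A Pe_F and the 8 other Pe_F; bars are group medians. Cell cycle sums of the number-2A Pe_F (2086 to 2334 CPM) lie above all Pe_M, and the neutrophil panel has 3 Pe_F libraries above the rest.

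Genes of fatty acid oxidation and other PPARA targets were higher in value as a group, and 1 Pe_M library weighed on this. Against 11 Pe_F 19 of 21 were higher (median 0.32), and against 3 Pe_F all 21 (median 0.68), with 0 called by edgeR or DESeq2. Against 3 Pe_F 1 had an unadjusted p under 0.05, beside 3.13% of all tested genes. Their summed level was 8903, 15790 and 39000 CPM in Pe_M 1, 2 and 3, and without Pe_M 3 the median against 3 Pe_F was 0.19, with 17 of 21 higher. Cyp4a14, a PPARA target that is female-biased in mice, was at 449.5, 1309 and 5570 CPM in Pe_M against 210.7, 1930 and 5425 CPM as the lowest, median and highest Pe_F. Pe_M 3 was thus above every Pe_F and Pe_M 1 near the bottom of the range.

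Hepatocyte zonation lists had small medians. The 11 periportal genes had a median of -0.22 against 11 Pe_F and -0.32 against 3 (-0.12 without Pe_M 2 and -0.50 without Pe_M 3). Against 3, 9 of 11 were lower in value and 4 of them had an unadjusted p under 0.05, beside 3.93% of all tested genes. Hal, the periportal enzyme that degrades histidine, was at 140.0, 81.7 and 82.9 CPM in Pe_M and 268.4, 183.8 and 217.2 CPM in the number-2A Pe_F (-1.13 ± 0.24, edgeR adjusted p = 0.366); it was chosen after its values were seen. The 11 pericentral genes had medians of -0.26 (-0.58 without Pe_F 2, 5 and 6) and 0.04. The 15 stellate cell and fibroblast markers had medians of 0.26 and 0.46, with 14 and 13 of them higher in value. The first was 0.14 without Pe_F 2, 5 and 6, and the second 0.77 without Pe_M 3, 0.31 without Pe_M 1 and 0.25 without Pe_M 2. The 16 hepatocyte identity genes had medians of 0.02 and -0.06, and the 20 Myc target and ribosome biogenesis genes of -0.09 and -0.04. EdgeR called no gene of these 5 lists, and DESeq2 called 1, a periportal gene against 3 Pe_F.

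**Figure D5:**
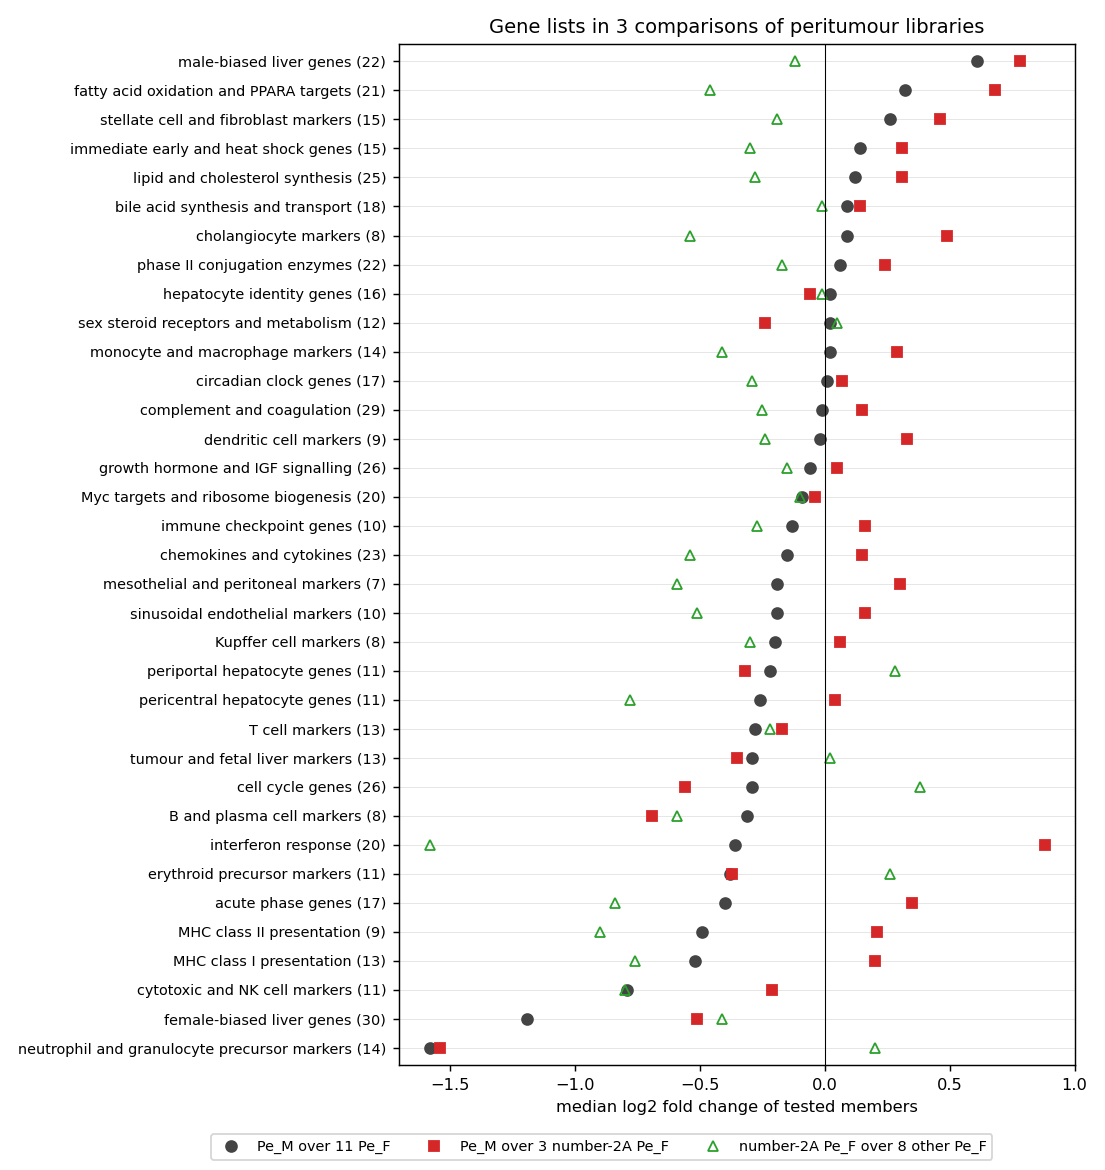
The x axis is the median log2 fold change of the tested members of each gene list (number tested against 11 Pe_F in brackets), for Pe_M over 11 Pe_F (black), Pe_M over the 3 number-2A Pe_F (red) and the number-2A Pe_F over the 8 other Pe_F (green). Male-biased genes are at 0.61 and 0.78 in the first pair, and the interferon list spans from -1.58 in green to 0.88 in red.

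The tumour libraries, paired by the number in their codes, allowed the question whether the M against F difference was of another size there. The test of that difference, blocked on the animal, subtracts the peritumour from the tumour effect and called 0 of 13641 genes in edgeR (0.0%), and 0 in DESeq2, with a smallest adjusted p of 0.688. At an unadjusted p under 0.05 493 genes had a positive difference (3.61%) and 455 a negative one (3.34%). The values given for each tissue come from separate fits without the block, so the blocked difference is not their subtraction. Sult2a2 had a log2 fold change of -0.43 ± 0.75 between Tu_M and Tu_F beside -3.19 in peritumour tissue, and the blocked difference of 1.70 ± 0.72 did not pass (adjusted p = 0.688). Sult2a1 had -0.54 ± 0.76 in tumour, a blocked difference of 2.40 ± 0.82. For Elovl3 the tumour value was -0.31 ± 1.31, a blocked difference of -2.74 ± 0.83 (edgeR adjusted p = 0.688). Cyp2b9, by contrast, had -4.48 ± 1.4 in tumour beside -4.56 in peritumour tissue, and Mup20 had 1.27 ± 0.84 beside 1.78. No difference between the tissues was thus shown for any gene.

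The authors' deposited table of the same comparison, whose columns are named for DEGseq, lists 8231 of 15874 autosomal genes at a q-value under 0.05, 3524 of them higher and 4707 lower in Pe_M when its log2 column is read as Pe_F over Pe_M, a direction taken from the table's mean columns. Its settings are not given in the sources used here, and with the spread between libraries as the error, edgeR called 0 of 13250.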

How the data were processed

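Poly(A) RNA of mouse liver tissue was sequenced after random-hexamer priming, per the labels' protocols. Tools listed per the submitters' processing notes, without roles, were RSEM 1.2.12, DESeq2 1.4.5, Bowtie2 2.2.5 and HISAT2 2.0.4. The deposited table holds the authors' estimated counts per gene (8.06% not whole) and TPM. It also holds the authors' deposited log2 fold changes and q-values of Pe_M against Pe_F, under columns named for DEGseq. The build is not given in the labels, and the chromosome accessions are those of GRCm38. Of 18183 rows, 1 without a gene identifier was left out, 3 mean columns of another group were not used, and 26 symbols turned into dates were restored through gene identifiers.

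Estimated counts were rounded and tested with edgeR 4.0.16 in R 4.3.3 (TMM, filterByExpr, robust quasi-likelihood). Benjamini-Hochberg adjustment ran over all genes tested (13694 and 13240 in the comparisons with 11 and 3 Pe_F), at a threshold of 0.05, and autosomal calls were counted. Scaled CPM used the TMM factors of the 14-library fit, which ran from 0.869 (Pe_M 3) to 1.136 (Pe_F 5). On data simulated for the comparison with 11 Pe_F, 60% of 50 genes changed 2-fold and 96% of 50 changed 4-fold were called, and for that with 3 Pe_F 76% and 94%. Unchanged genes made up 4 of 182 and 15 of 199 simulated calls. The changed genes had a mean of at least 5 CPM. Counts were drawn independently, without outlying libraries such as Pe_F 5 or shifts shared by many genes. These shares therefore do not say which differences would be found in the real libraries.

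Members and gene lists were chosen with earlier results of these data known. Named genes were those called, or the 5 with the smallest p in each direction at a mean of at least 5 CPM in the higher group, the 2 sex-biased lists, and a fixed set of growth hormone and tumour genes. Shared sequence is the share of a gene's 50-base stretches found in other genes of the reference transcripts. No 2 libraries of a group agreed within sampling noise. Alternatives were other scalings and filters, DESeq2 1.42.0, code form, a replicate block and left-out libraries. DESeq2 was set to replace outlying counts in large groups, which applies to the 11 Pe_F and not to groups of 3. Alternatives for list medians (without blood-marker libraries, code form, library size) and for single genes against 3 Pe_F were chosen after seeing the data. The values of 1 female-biased gene are not reported here.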

Additional observations from a re-analysis of the deposited data

How the results depend on the processing

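The number of genes called against 11 Pe_F was 0 with the main settings, 1 with library size alone, 8 with DESeq2's Wald test (1 higher, 7 lower) and between 0 and 2 when 1 library was left out. Against the number-2A Pe_F it was 2, and became 89 with DESeq2 (25 higher, 64 lower), 4 without a filter on low counts (1 higher, 3 lower) and between 1 and 12 when 1 library was left out. The comparison within Pe_F gave 0 with edgeR and 111 with DESeq2 (38 higher, 73 lower). The difference between tumour and peritumour tissue gave 0 under each of its alternatives. Replicate numbers were tried as a pairing: with the replicate block, 1 gene was called against 11 Pe_F and 1 against 3, Sult2a2 in both. Pe_F 4 to 11 have no Pe_M of the same number and add nothing to the blocked difference. Both fits therefore rest on the same libraries and are not separate results. Deviations of same-numbered Pe_M and Pe_F libraries correlated at -0.201, -0.184 and -0.29, so the numbers were not taken to pair the samples. The cause of these shifts was not tested.

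Over the alternatives, the log2 fold change of Sult2a2 ran from -3.40 to -2.99 against 11 Pe_F and from -3.25 to -2.83 against 3, and that of Dlk1 against 3 from -7.61 to -6.20. Dlk1 rested on 3 counts in Pe_M, which limits its size. Among the 92 named genes, 24 changed sign under at least 1 alternative against 11 Pe_F, and 8 were called under at least 1.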
